A study of Mus musculus with 2 samples.

Results

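The secretory granule genes described here are 10 genes of the regulated secretory pathway, taken by symbol from the 32285 genes of the count tables: the granins Chga, Chgb, Scg2, Scg3 and Scg5, the prohormone convertases Pcsk1 and Pcsk2, and the granule proteins Ptprn, Ptprn2 and Resp18. All 10 were found and all 10 had UMIs in both libraries. The list was made by gene symbol and not by level, but with earlier results of these data known.

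Endocrine and neuroendocrine cells store peptide hormones in dense-core granules and release them on a calcium signal. Granins are acidic proteins that pack with the hormone inside the granule, and the convertases cut prohormones into active peptides once both have been sorted there. In the thymic medulla, some epithelial cells take on features of peripheral cell types, neuroendocrine cells among them, and display their proteins to developing T cells.

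Mouse thymus was digested with DNase and liberase and passed over Percoll, and live EPCAM+ cells, the epithelial fraction, were sorted and sequenced as single cells. One library carries the title Foxp1 KO and the name KO (Cre+), and the other the title Foxp1 WT and the name WT (Cre-). Foxp1 encodes a transcription factor of the forkhead family. The sources used here do not give the Cre driver, the deleted part of the gene, the age or the number of mice per library, and the genotype field reads KO for both libraries.

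With 1 library per group there was no replicate check, and no test of KO against WT was possible. All intervals below are 95% intervals for counting error only. Of 4277 barcodes labelled KO (25233944 UMIs), 3584 were kept as cells, and of 4957 labelled WT (33120715 UMIs), 4037 were kept. Foxp1 did not go with the labels: it stood at 405 CPM (UMIs of the gene per 1000000 UMIs of the cells summed) in KO-labelled epithelium and at 252 CPM in WT-labelled epithelium. A count over the whole gene does not show whether an exon was removed, so directions between the libraries are given below by label only. The libraries shared 5 cell barcodes, 3 of them among kept cells and 0 in the class described next.

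Cells were grouped with the 10 genes left out, so that none of them shaped a cluster. A single cluster was named neuroendocrine-like from 6 of 12 markers, which were the transcription factors Insm1, Rfx6, St18 and Myt1 and the RNA-binding proteins Celf3 and Elavl4. It made up 5.12% of the KO-labelled epithelium (167 of 3261 cells, exact binomial interval 4.39 to 5.93%) and 3.91% of the WT-labelled epithelium (152 of 3883 cells, 3.33 to 4.57%). Insm1 stood at 363 and 404 CPM in the class, KO-labelled value first, against 98.6 and 124 CPM in the other epithelial cells. Elavl4 stood at 165 and 154 CPM against 2.23 and 1.76 CPM. The islet and gut endocrine regulators Neurod1, Nkx2-2, Pax6 and Fev were each found in under 10% of the class, and the neural marker Scrt1 was at 2 UMIs in the KO-labelled class and 0 in the WT-labelled class. Stmn2, the remaining marker, went the other way, at 7.12 and 3.87 CPM in the class against 16.5 and 14.6 CPM. The cells were deeper than the rest, with a median of 8505 and 9719.5 UMIs against 4965 and 6020 in the other epithelial cells. From here on, a pair of values gives the library labelled KO before the library labelled WT.

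Most promoters of the granule genes held the core of a cyclic AMP element. The cyclic AMP response element (CRE), the 8-letter TGACGTCA bound by CREB-family factors, was searched on both strands from 250 bases before to 50 bases after each RefSeq start (build GRCm38.p6). It was found in 3 of the 10 members, Scg2, Chgb and Pcsk1, and in 1.79% of 32851 promoters. Its 5-letter core TGACG, which also lies inside every CRE, was found in 8 members and in 20.8% of promoters. The windows below are printed because they carry that block near the middle of each line, on the gene's strand and 5′ to 3′, with TGACGTCA, TGACG or its reverse complement CGTCA in capitals.
Scg2: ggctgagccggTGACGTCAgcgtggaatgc
Chgb: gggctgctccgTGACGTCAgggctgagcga
Pcsk1: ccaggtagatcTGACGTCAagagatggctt
Chga: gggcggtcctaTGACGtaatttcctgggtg
Scg3: cgctgggtcgcTGACGccatcctcacgcct
Scg5: aaggaggtaaaTGACGttcataggggtcga
Pcsk2: cgctggcgggcgcgCGTCAcccgggctggc
Ptprn: gggggtggagatgtCGTCAttgcacgcctg

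The 3 full elements lay within 10 bases of each other relative to the start, with their first base 68 bases before the start of Scg2 (window chr1:79440076-79440105, minus strand), 72 before that of Chgb (chr2:132781559-132781588, plus strand) and 78 before that of Pcsk1 (chr13:75089768-75089797, plus strand). These distances depend on the RefSeq start used. Of the 150 bases before it, GENCODE M21 annotates 94 as exon of the gene in Scg2, 150 in Chgb and 31 in Pcsk1. The core of Chga lay 44 bases before its start (chr12:102554886-102554915, plus strand). In Scg5 the core printed lay 175 bases before the start (chr2:113829248-113829277, minus strand). The remaining windows were chr9:75684068-75684097 for Scg3 and chr1:75264273-75264302 for Ptprn, both on the minus strand, and chr2:143546085-143546114 for Pcsk2 on the plus strand.

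Ptprn2 and Resp18 were the only members without the core in the window searched. The 150 bases before their starts are given for contrast, at chr12:116485570-116485719 on the plus strand and chr1:75278416-75278565 on the minus strand, with no capitals because neither holds the block.
Ptprn2: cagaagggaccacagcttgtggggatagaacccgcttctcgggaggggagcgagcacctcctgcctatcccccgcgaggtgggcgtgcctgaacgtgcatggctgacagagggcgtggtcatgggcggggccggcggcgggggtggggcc
Resp18: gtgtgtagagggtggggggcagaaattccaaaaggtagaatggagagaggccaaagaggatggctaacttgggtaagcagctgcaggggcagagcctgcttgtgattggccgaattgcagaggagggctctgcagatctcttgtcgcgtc

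Ptprn2 shared another block with Scg2. Both held TTCAGCACC and GGACAG, the blocks of RE1, the element bound by the neuronal repressor REST, directly next to each other as TTCAGCACCGGACAG on the strand opposite the gene. They were the only 2 promoters with that string among 32851, and the string was searched only after its blocks had been found in both genes. With 2 bases between the blocks, 4 promoters matched and no member was among them. Neither Scg2 nor Ptprn2 held the blocks at that spacing, so the adjoining string is not called an RE1 here. The E-box CAGCTG lay in 4 members (Chga, Chgb, Pcsk2 and Resp18; 16.3% of promoters), CATCTG in 0 members (17.2%) and TATAAA in Chga only (13.6%). These matches describe letters in the reference and not binding in these cells.

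The granins Chga, Chgb, Scg2 and Scg3 were highest in the neuroendocrine-like class in both libraries. Chga, the chromogranin used as a general marker of endocrine cells, stood at 425 CPM (394 to 457) and 490 CPM (458 to 523), against 12.5 and 30.9 CPM in the other epithelial cells. Scg2, which is also cut into bioactive peptides, stood at 416 and 180 CPM against 6.60 and 3.36 CPM. Chgb stood at 121 and 478 CPM against 4.51 and 6.36 CPM. The Chgb values of the 2 libraries lay far apart while both stood above every other class. Scg3, a granin that anchors chromogranin A to the granule membrane, was sparse, at 43 and 33 UMIs in the class (25.5 and 18.3 CPM) against 10 and 22 UMIs in all other epithelial cells (0.485 and 0.761 CPM).

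Scg5, the chaperone of the Pcsk2 enzyme, was also highest in the class, at 323 and 295 CPM, but it was spread widely. It stood at 167 and 91.5 CPM in gut and liver epithelial-like cells, 162 and 79.8 CPM in the unnamed cluster 10, 90.1 and 117 CPM in microfold-like cells, and 38.9 and 49.4 CPM in Ccl21 mTEC-like cells. Only 35.0% and 29.7% of its epithelial UMIs lay in the neuroendocrine-like class.

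The convertases were low throughout the epithelium. Pcsk1, which makes the early cuts in most prohormones, stood at 50.5 and 28.8 CPM in the class against 1.79 and 2.77 CPM elsewhere in the epithelium, and 69.7% and 39.4% of its epithelial UMIs lay in the class. Ciliated-like cells labelled WT held 35.3 CPM of Pcsk1 (17.6 to 63.2), from 11 UMIs in 2 of 30 cells, and 0 of 42 labelled KO held a UMI, which allows a share of up to 7.14%. Pcsk2, which makes later cuts such as those that release glucagon, stood at 36.2 and 32.6 CPM against 7.71 and 13.6 CPM. Its UMIs lay mostly elsewhere, with 27.7% and 13.1% in the class, and Aire-stage mTEC-like cells held 17.9 and 29.7 CPM. In the class Pcsk2 was found in 18 of 167 and 12 of 152 cells, and the 5 highest cells held 70.5% and 83.1% of its UMIs there. Without the 5 highest cells of each set, the WT-labelled ratio of Pcsk2 turned around, from a log2 ratio of 1.26 to -0.91.

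The membrane proteins Ptprn and Ptprn2 are receptor-type phosphatase-like proteins of the granule membrane and autoantigens in type 1 diabetes. Ptprn2 stood at 1206 CPM (1154 to 1260) and 1195 CPM (1145 to 1247) in the class and was found in 164 of 167 and 151 of 152 of its cells. Tuft-like cells came next, at 119 and 146 CPM. Ptprn stood at 51.0 and 39.3 CPM in the class, and among the other epithelial classes the unnamed cluster 10 came next, at 8.66 and 9.67 CPM (4 and 8 UMIs).

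Resp18, a small endocrine granule protein related in sequence to Ptprn, had a different pattern. Its levels were 438 and 514 CPM in the neuroendocrine-like class, 495 and 350 CPM in the unnamed cluster 4, led by Ccl22, Nos2 and Anxa10, and 1094 and 513 CPM in the unnamed cluster 10, led by Klk1b26, Klk1b16 and Ccl5. In cluster 10 of the library labelled KO, 1 cell held 328 of 505 UMIs, and without it the level was 393 CPM. In the library labelled WT, cluster 10 (465 to 564 CPM) overlapped the neuroendocrine-like class (481 to 548 CPM), and cluster 4 lay below both (328 to 373 CPM). Of the epithelial UMIs of Resp18, 21.0% and 24.0% lay in the neuroendocrine-like class. The heat map of levels by class shows this spread beside the compact pattern of Chga, Scg2, Scg3 and Ptprn2.

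**Figure D1:**
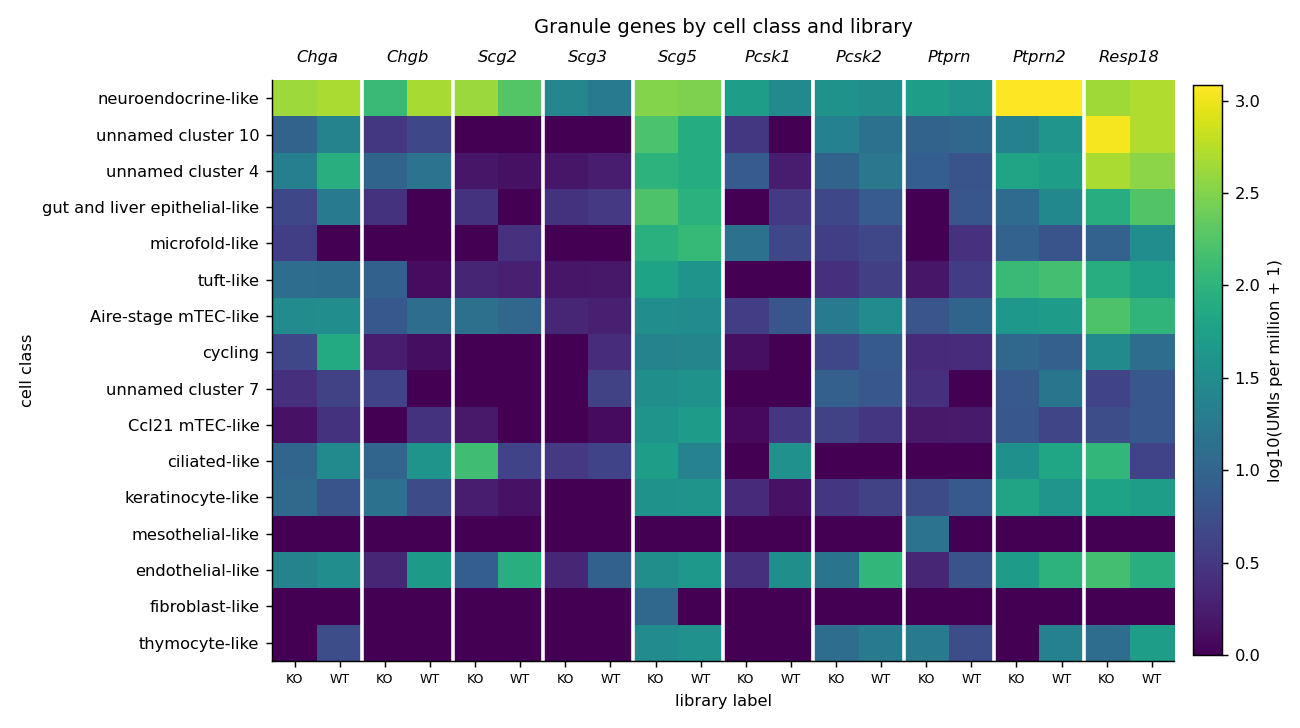
Levels of the 10 genes as log10(CPM + 1), by cell class (rows) and library label (columns, KO and WT for each gene). Among the epithelial rows, the neuroendocrine-like row is the highest in both columns for 8 genes. The WT-labelled endothelial-like row includes 1 cell with 97 Pcsk2 UMIs. WT-labelled Pcsk1 is higher in ciliated-like cells (35.3 CPM against 28.8). Resp18 reaches 1094 and 513 CPM in cluster 10, and Scg5 167 and 91.5 in gut and liver epithelial-like cells.

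Counted against the other epithelial cells, 9 of 10 members were at least 4-fold higher in the class in the library labelled KO, where 3.01% of 19084 tested genes were, and 9 of 10 in the library labelled WT, where 2.5% of 20185 genes were. Resp18 was the exception in the library labelled KO (3.26-fold) and Pcsk2 in the library labelled WT (2.40-fold). Scg2 was 63.0-fold (log2 5.98, 5.71 to 6.25) and 53.7-fold (5.75, 5.42 to 6.09) higher in the class. Chga was 34.0-fold and 15.8-fold higher, and Ptprn2 33.2-fold and 25.5-fold. Scg5 stood lower, at 6.59-fold and 6.76-fold. The median log2 ratio of the 10 members was 4.78 and 3.68, against -0.00 and 0.02 over all genes tested. Fewer cells with a gene and less RNA per cell cannot be told apart in these sums.

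At an equal depth of 2000 UMIs per cell, which 163 of 167 and 152 of 152 cells of the class reached, Ptprn2 was found in 83.4% and 84.9% of them and in 4.6% and 6.03% of the other epithelial cells. Chga was found in 41.1% and 45.4% against 1.65% and 2.03%. For Scg2 the shares were 25.2% and 15.1%, and for Chgb 14.1% and 20.4%. Without thinning, Chga was found in 70.7% and 76.3% of the class, Scg2 in 35.3% and 25%, and Chgb in 40.7% and 51.3%. Thymocyte-like cells, which should lack these genes, gave 0 of 25 and 0 of 35 cells for each of Chga, Chgb and Scg2 at 2000 UMIs, which allows shares of up to 12% and 8.57%, and they held Scg5 in 4% and 8.57% of cells. The Scg5 share in the other epithelial cells, 8.13% and 6.78%, lay within the intervals of that background (0.101 to 20.4% and 1.80 to 23.1%), and its share in the class, 51.5% and 39.5%, lay above them. Median depth before thinning was 3885.5 and 3707 UMIs in the thymocyte-like cells.

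Members occurred together. At 2000 UMIs the median cell of the class held 3 and 2 of the 10 genes, and the median of the other epithelial cells was 0. Of the class, 90 of 163 cells (55.2%) and 72 of 152 cells (47.4%) held 3 or more, against 9 of 2608 (0.345%) and 17 of 3302 (0.515%). Among endothelial-like cells, 4 of 205 (1.95%) and 1 of 88 (1.14%) did. Only 4 cells of the class in each library held none. Within the class, pairs of members are given as examples. In the library labelled KO, Chga was found in 41.2% of cells with Ptprn2 and in 40.7% of cells without it. Scg5 was found in 78.3% of the 23 cells with Chgb and in 47.1% of the 140 cells without it. The number of members per cell rises wherever each gene is found in more cells, so it does not show that members go together. Whether members go together from cell to cell within the class was not tested. Unthinned, 90 of 167 and 89 of 152 cells held 5 or more members, and no cell of the class held all 10.

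**Figure D2:**
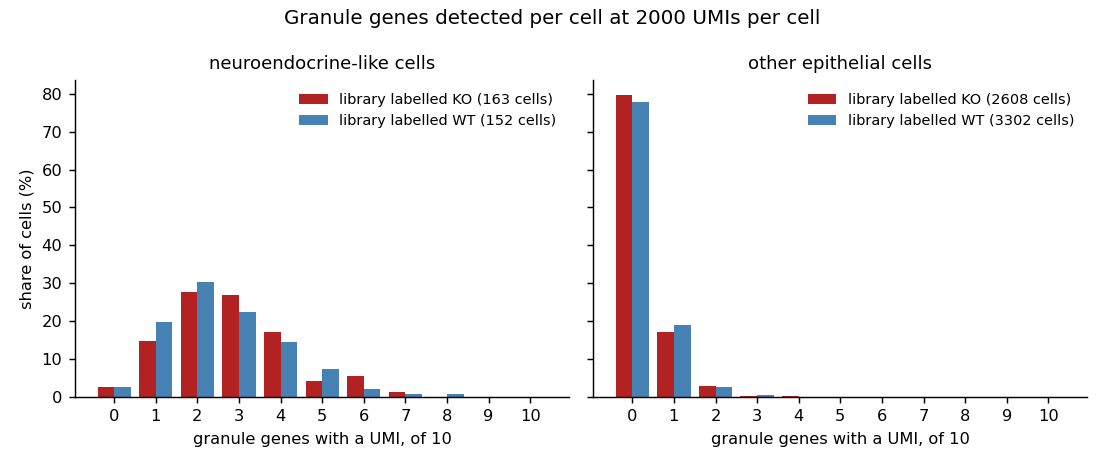
Share of cells (%) by the number of the 10 genes with a UMI, after thinning every cell to 2000 UMIs, for neuroendocrine-like cells (left) and other epithelial cells (right). Bars are libraries; the class peaks at 2 to 3 genes, while 79.8% and 78.0% of the other cells hold 0.

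A few cells outside the class carried large member counts. In the library labelled WT, 1 cell of the cycling cluster held 224 Chga UMIs with 2259 UMIs of Pth, the parathyroid hormone gene, and 1 cell of cluster 4 held 171 Chga UMIs with 498 of Pth, 9 of Casr, the calcium-sensing receptor, and 2 of Gcm2, the parathyroid regulator. Neither cell had a UMI of Chgb, Scg2, Scg3, Scg5, Pcsk1, Pcsk2, Ptprn or Ptprn2. The 9 other cells with at least 10 Pth UMIs held 0 to 4 Chga UMIs. Without the first cell the Chga level of cycling cells labelled WT was 8.33 CPM in place of 74.6, and without the other that of cluster 4 was 24.8 CPM in place of 86.0.

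All 10 members were found in 2 cells, both in the library labelled WT and both outside the class. The cell named with the endothelial cluster had 29647 UMIs, with 97 of Pcsk2, 65 of Scg2, 44 of Chgb, 39 of Ptprn2, 27 of Pcsk1 and 19 of Chga, and 876 of Sst, the somatostatin gene. It also held 7 of 12 neuroendocrine markers, 8 of 8 endothelial markers, 8 of 9 Aire-stage markers and 29 UMIs of Epcam. The other, with 31530 UMIs, was in the Aire-stage cluster and held 40 Scg2 and 26 Ptprn2 UMIs. The doublet caller marked 0 cells in either library and so had not worked, and whether these profiles come from more than 1 cell was not tested. The plot of UMIs per cell shows how few cells set the upper range of Chga, Chgb, Pcsk2 and Resp18.

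**Figure D3:**
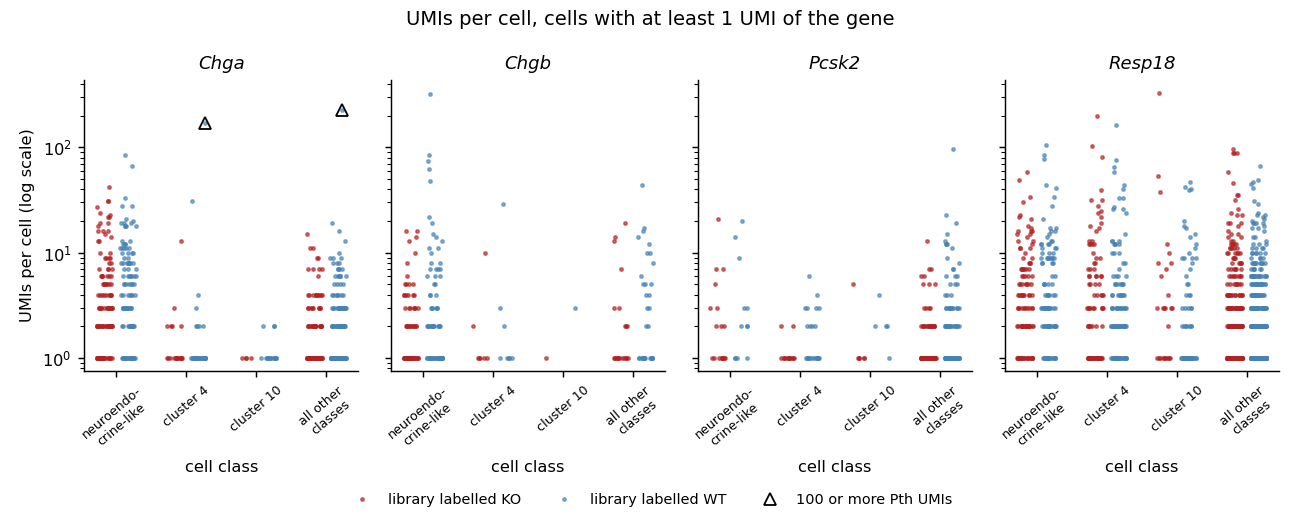
UMIs per cell (log scale) of 4 genes in cells with at least 1 UMI, by class and library label; triangles in the Chga panel mark cells with 100 or more Pth UMIs. A single WT-labelled cell reaches 320 Chgb UMIs, 1 KO-labelled cell of cluster 10 reaches 328 Resp18 UMIs, and both triangles are WT-labelled cells.

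Between the libraries, 7 of 10 members were less than 1.5-fold apart in the class. Within the neuroendocrine-like cells, Ptprn2 gave a log2 ratio of KO-labelled to WT-labelled of 0.01 (-0.08 to 0.10), Chga -0.20 (-0.35 to -0.06), Resp18 -0.23 (-0.37 to -0.09) and Scg5 0.13 (-0.04 to 0.31). Scg2 was 2.30-fold higher in the library labelled KO (1.20, 1.01 to 1.40) and Pcsk1 1.75-fold higher (0.81, 0.30 to 1.34). Chgb was lower, with a ratio of 0.253 (log2 -1.98, -2.21 to -1.76). That made 3 of 10 members at least 1.5-fold apart, 2 higher and 1 lower, where 19.2% of 12220 genes were (8.51% higher and 10.7% lower). The intervals of Scg3, Pcsk2 and Ptprn spanned 0.

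Single cells carried much of the Chgb difference. In the library labelled WT, 1 cell held 320 of 865 Chgb UMIs of the class and the 5 highest held 68.1%, and without the top cell the level was 304 CPM. The log2 ratio of Chgb was -1.42 without the top cell of each library, added after seeing the data, and -0.91 (-1.22 to -0.61) without the top 5. Scg2 moved the other way, to 1.69 (1.43 to 1.97) without the top 5 cells. Pcsk1 was 0.64 (-0.07 to 1.36) there. At 2000 UMIs Chgb was found in 14.1% (9.16 to 20.4%) and 20.4% (14.3 to 27.7%) of the class, intervals that overlap.

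**Figure D4:**
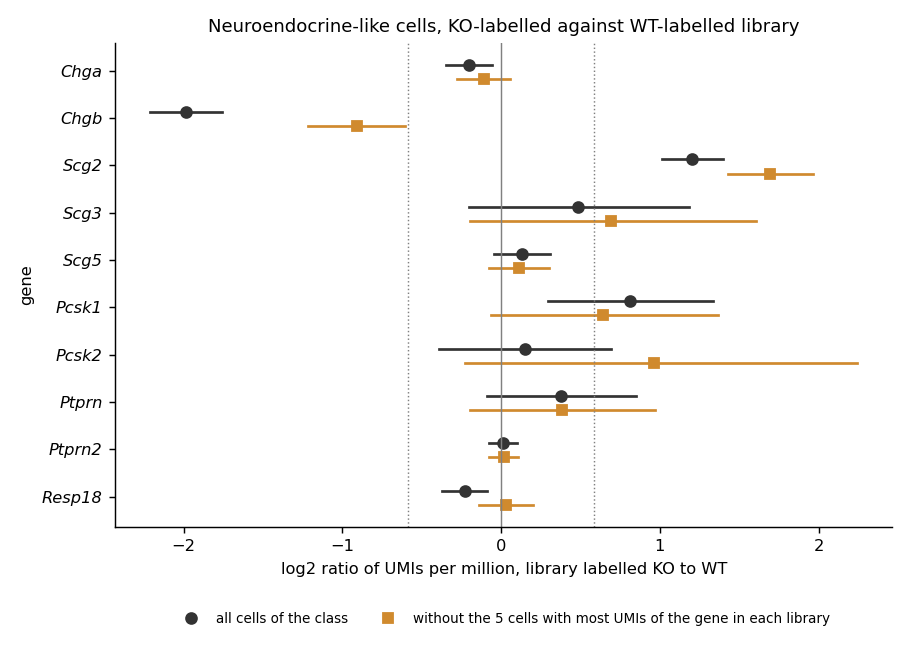
Log2 ratio of CPM, library labelled KO to WT, in the neuroendocrine-like class for each gene, with 95% counting intervals; dotted lines mark 1.5-fold. Circles use all cells and squares leave out the 5 highest cells of the gene in each library: Chgb moves from -1.98 to -0.91 and Scg2 from 1.20 to 1.69.

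In the other epithelial cells 6 of 10 members were at least 1.5-fold apart, 1 higher and 5 lower, where 17.8% of 21674 genes were (7.68% higher and 10.1% lower). Chga stood at 12.5 and 30.9 CPM (log2 ratio -1.30, -1.51 to -1.10), but without the cells with 10 or more Pth UMIs, left out after seeing the data, at 12.3 and 17.2 CPM (-0.49, -0.71 to -0.27), which is under 1.5-fold and leaves 4 members lower. Pcsk2 (-0.82, -1.09 to -0.55), Ptprn (-0.74, -1.19 to -0.30) and Pcsk1 (-0.62, -1.23 to -0.05) were also lower in the library labelled KO. Scg3 passed the same fold at -0.65 (-1.89 to 0.49), but from 10 and 22 UMIs and with an interval that spanned 0. Scg2 was higher (0.98, 0.59 to 1.37), with 47 of its 136 KO-labelled UMIs in 1 ciliated-like cell. Over all epithelial cells, which adds the share of the class to the level inside it, Scg2 was higher (1.44, 1.27 to 1.62) and Chgb lower (-1.36, -1.55 to -1.17), 2 of 10 members where 17.3% of 21829 genes were (7.48% higher and 9.85% lower).

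The neuroendocrine-like class was not uniform, and its 5 subclusters, found again without the 10 genes, differed in several members, of which Scg2, Pcsk1 and Chgb are described here. Subcluster 1 (46 and 26 cells), led by Aifm1, Rbp4, Upb1, Pax6 and Gm11992, held Scg2 at 1117 and 862 CPM and Pcsk1 at 133 and 121 CPM. Subcluster 2 (56 and 57 cells), led by Clps, Clca1, Klk1, Mrnip and Rnase1, held Scg2 at 126 and 74.8 CPM and Pcsk1 at 22.5 and 10.7 CPM. Both libraries thus gave Scg2 and Pcsk1 the same order between these subclusters, at depths that were alike (medians of 6931 and 8474.5 against 8013.5 and 7920 UMIs). Chga and Ptprn2 did not follow that order in both libraries: Chga stood at 630 and 574 CPM in subcluster 1 and at 510 and 704 CPM in subcluster 2, and Ptprn2 at 1654 and 1928 CPM against 1682 and 1696 CPM. Chgb was 195 and 617 CPM in subcluster 1 and 128 and 1155 CPM in subcluster 2, the latter with the cell of 320 UMIs.

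The other 3 subclusters were led by genes of other epithelial classes. Subcluster 0 (35 and 24 cells) carried 6 of 8 Ccl21 mTEC markers, subcluster 3 (17 and 30 cells) all 10 tuft markers, and subcluster 4 (13 and 15 cells) 8 of 9 Aire-stage markers. Their median depths were 11526, 14954 and 20079 UMIs, above those of subclusters 1 and 2. Ptprn2 was lower in subclusters 3 and 4 than in 1 and 2, at 784 and 657 CPM over both libraries against 1768 and 1689 CPM. Without these 3 subclusters, left out after seeing the data, the class had 102 and 83 cells, and the log2 ratio between the libraries was 0.69 (0.46 to 0.93) for Scg2, 0.55 (-0.10 to 1.22) for Pcsk1, -2.64 for Chgb and -0.93 (-1.95 to 0.04) for Pcsk2.

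The mix of subclusters also differed between the libraries. Subcluster 1, where Scg2 was highest, made up 27.5% (20.9 to 35.0%) of the class in the library labelled KO and 17.1% (11.5 to 24.0%) in the library labelled WT. The summed tuft markers stood at 465 and 1355 CPM over the class, with none of its 10 markers at 0 in either library. Within subcluster 1 the Scg2 ratio was 0.37 (0.12 to 0.63) and the Pcsk1 ratio 0.14 (-0.58 to 0.89), both smaller than over the class. The part of the mix and of the tuft markers in the differences over the class was not tested. Scg2 was higher in the library labelled KO in all 5 subclusters, from 0.37 to 3.34 in log2, but single cells weighed on several of these ratios. In subcluster 4, at 3.34, 1 of 13 KO-labelled cells held 41 of 60 Scg2 UMIs. In subcluster 3, 1 cell in each library held 61 of 99 and 39 of 59, and in subcluster 2, 29 of 56 and 17 of 35. In subcluster 1 Scg2 was found in 50% and 61.5% of cells. Chgb was lower in subclusters 0, 1 and 2 (-2.68, -1.66 and -3.17) and higher in subcluster 3 (1.33, 0.64 to 2.03). In subcluster 4 its interval spanned 0 (-0.81, -1.72 to 0.05). Single WT-labelled cells held 74 of 109 Chgb UMIs in subcluster 0, 62 of 143 in subcluster 1 and 320 of 540 in subcluster 2. In subcluster 3, 1 KO-labelled cell held 16 of 43 Chgb UMIs. Resp18 was lower in subcluster 3 (-1.53, -2.06 to -1.04) and higher in subcluster 4 (2.08, 1.46 to 2.73), subclusters of 13 to 30 cells in each library. In subcluster 3, 1 WT-labelled cell held 85 of 223 Resp18 UMIs, and in subcluster 4, 1 KO-labelled cell held 49 of 91.

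**Figure D5:**
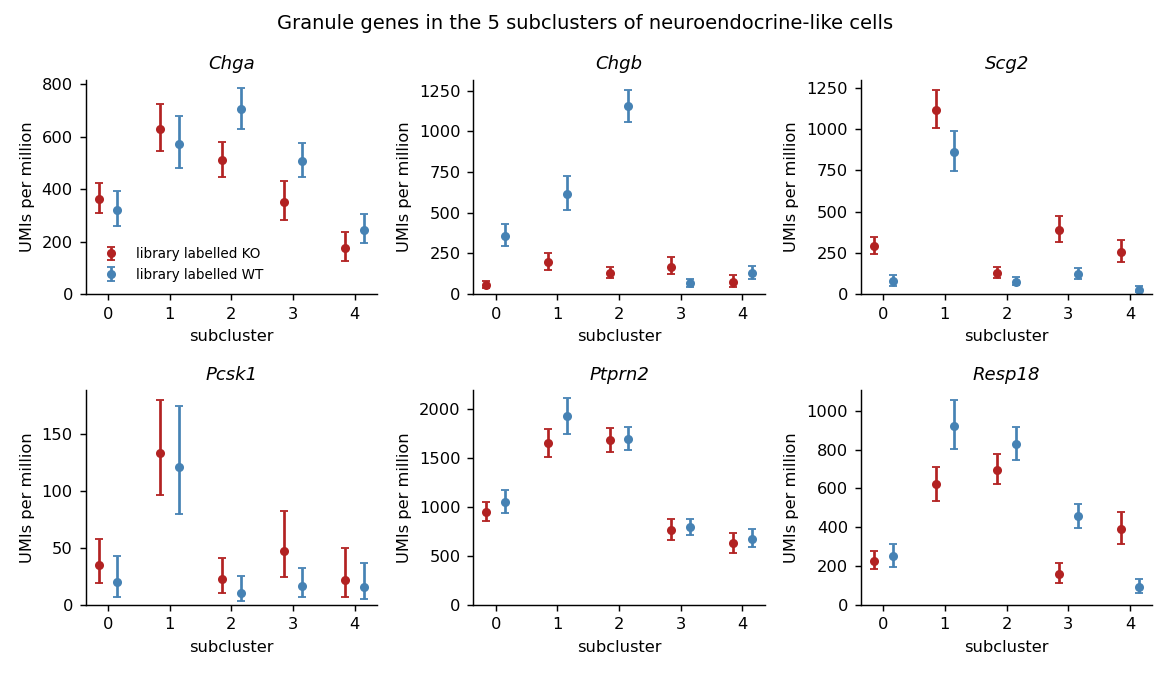
CPM of 6 genes in subclusters 0 to 4 of the neuroendocrine-like class, by library label, with 95% counting intervals. Scg2 and Pcsk1 peak in subcluster 1 in both libraries (Scg2 at 1117 and 862), and WT-labelled Chgb peaks at 1155 in subcluster 2.

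Other genes of the granule pathway followed the members only in part. Among 14 listed genes for other granins and cargo processing, 2 of 12 tested were at least 4-fold higher in the class in the library labelled KO and 1 of 13 in the library labelled WT. Cpe, the carboxypeptidase that trims peptides after the convertases, was the gene that passed in both, at 62.3 and 50.9 CPM against 8.05 and 9.03 CPM. Vgf, another granin, stood at 48.1 and 30.4 CPM against 13.5 and 18.2 CPM and did not pass. The median log2 ratio of this list was 0.18 and 0.63.

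Granule formation and transport gave 5 of 23 and 7 of 24 genes past 4-fold, with medians of 1.15 and 0.97. Ica1, a granule-biogenesis protein and islet autoantigen, stood at 329 and 306 CPM against 24.0 and 24.6 CPM. The zinc transporter Tmem163 stood at 229 and 258 CPM against 8.83 and 13.2 CPM. Rab27a, Ica1l and Hid1 also passed in both libraries, at 26.7 to 86.7 CPM in the class. Exocytosis machinery gave 10 of 21 and 9 of 21 genes, with medians of 1.85 and 1.52. Snap25, the plasma membrane SNARE, stood at 320 and 282 CPM against 3.10 and 5.12 CPM. Rims2, Cplx2, Rimbp2, Syt7, Rph3al, Unc13b and Syt13 passed in both libraries as well.

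Amine synthesis and loading gave 3 of 7 and 2 of 7 genes, with Ddc (141 and 108 CPM against 15.2 and 13.1 CPM) and Gch1 (139 and 107 CPM against 19.8 and 19.0 CPM) in both. Of the peptide hormones, 4 of 22 and 3 of 23 genes passed upward, while 9 and 11 were at least 4-fold lower in the class than in the other epithelial cells, as were 5.9% and 5.75% of all genes tested, and the list medians were -1.51 and -1.55. The 3 that passed in both libraries rested on a few cells. Sst stood at 250 and 323 CPM against 17.3 and 21.0 CPM, with 330 and 92 of its 422 KO-labelled UMIs in 2 cells and 520 of 584 WT-labelled UMIs in 1 cell. Gcg, the glucagon gene, stood at 183 and 115 CPM against 12.1 and 16.7 CPM, with all 309 KO-labelled UMIs in 1 cell and 202 of 208 WT-labelled UMIs in 1 cell. Ghrl, the ghrelin gene, stood at 135 and 259 CPM against 7.23 and 9.93 CPM, with 209 of 227 UMIs in 2 cells and 374 of 469 in 3 cells. Iapp passed in the library labelled KO only, at 543 and 370 CPM against 74 and 99.7 CPM, and lay in more cells. It was found in 48 of 167 and 49 of 152 cells of the class. Between the libraries, within the class, the 5 lists had 1 of 9, 3 of 21, 3 of 18, 1 of 4 and 7 of 13 genes at least 1.5-fold apart, in the order given here, where 19.2% of all genes tested were. The 7 hormone genes include Gcg and Ghrl, and others of them also rested on few cells. Pyy had 247 of 275 KO-labelled UMIs in 1 cell, Nts 61 of 79 WT-labelled UMIs in 1 cell and Pomc 74 of 83 WT-labelled UMIs in 2 cells. Sct, also among the 7, was found in 23 of 167 and 38 of 152 cells.

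Over the 17 cell clusters, as a description with both libraries pooled, the member pairs whose log2(CPM + 10) rose and fell together most were Scg2 with Pcsk1 (Pearson r 0.95) and Chgb with Scg3 (0.94). Scg2 with Scg5 (0.43) and Resp18 with Scg2 (0.44) were least alike. The points share libraries and differ in depth. Over the 16 clusters without the neuroendocrine-like one, r was 0.88 for Scg2 with Pcsk1, 0.67 for Chgb with Scg3, -0.00 for Scg2 with Scg5 and 0.23 for Resp18 with Scg2. Among 16966 other genes, those most like the summed members were 1700016L21Rik (0.93), Cntnap5b (0.93), Fam167a (0.92), Xkr6 (0.91), Syt14 (0.90), Ica1 (0.90), Coq8a (0.90), Rap1gap2 (0.89), Akr1c12 (0.89) and Akr1c19 (0.88). Without that cluster their r was 0.82 for Akr1c19, the lowest of the 10, to 0.91 for Xkr6, the highest. The sum leans on Resp18, which had more UMIs in the other epithelial cells than any other member (2770 and 2937). 1700016L21Rik, Xkr6 and Akr1c12 were also among the 10 genes most like Resp18 alone (0.90, 0.89 and 0.91). Ica1 and Rap1gap2 were among those most like Ptprn2 (0.93 and 0.92), and 1700016L21Rik among those most like Chga (0.92).

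Ptprn and Resp18 are neighbours on chromosome 1 in GENCODE M21 (GRCm38), 7696 bp apart with 0 annotated genes between them. Despite that, Ptprn was near 9 CPM in cluster 10, where Resp18 stood at 1094 and 513 CPM. Ptprn2 spans 791130 bp and overlaps Gm17807 and Mir153 on its own strand and 4 annotated genes on the other, and Pcsk2, Scg3, Ptprn and Resp18 each overlap at least 1 annotated gene on the opposite strand. The sources used here do not say whether counting used strand or intronic reads, so counts of these 5 genes may include reads of the overlapping ones.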

How the data were processed

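The 2 libraries of single-cell RNA from sorted thymic epithelium were analysed. UMI counts per gene and barcode were deposited by the authors as filtered matrices from Cell Ranger 7.0.1, per the file headers, on mm10, per the submitters' processing notes, which also name Seurat. Library sizes and depth are whole-number UMI counts, and depth limits the precision of every sum.

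A barcode was kept as a cell if it had 500 or more genes, 1000 or more UMIs and a mitochondrial share of 10% or less. Cells were clustered in scanpy 1.11.5 (3000 variable genes, 30 components, 15 neighbours, Leiden resolution 1) without the 10 genes; subclusters used 2000 variable genes and resolution 0.6. A cluster was named when at least 3 markers and 33% of a list reached 2-fold in at least 10% of cells, with 1 marker among its top 10 genes or 50% of its list; these thresholds were set after clusters were seen. Scrublet called 0 doublets in either library, so none were removed. Summed marker levels of the neuroendocrine-like class against the other epithelial cells were 1212 and 1492 CPM against 275 and 375 CPM for its own list, and 86.7 and 52.5 CPM for endothelial, 22.0 and 25.4 CPM for fibroblast, 34.4 and 52.5 CPM for thymocyte and 628 and 602 CPM for myeloid lists within the class.

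UMIs were summed per class and library. Intervals were exact: Poisson for levels, binomial conditional on the summed UMIs for ratios, and Clopper-Pearson for shares (scipy 1.17.1). Genes with at least 20 UMIs over both compared sets were tested against the fold; a count of 0 was set to 3 UMIs in ratios. Scripts were tested on simulated data. The members, lists and comparisons were chosen with earlier results of these data known. Named genes were the members, list genes at least 4-fold higher in both libraries (up to 8 per list), the 10 most alike genes, leading genes and markers; other names, such as Vgf, Pth and the Pth cells, were chosen after values were seen. Alternatives covered cell filters, clustering, class definition, weighting, top cells, gene filters and thinning. Proteins were not analysed here.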

Additional observations from a re-analysis of the deposited data

Results flagged for a closer look

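Pcsk1 was higher in the library labelled KO within the neuroendocrine-like class (log2 ratio 0.81) and lower in the other epithelial cells (-0.62), with both counting intervals away from 0. Resp18 did the reverse, at -0.23 in the class and 0.40 in the other epithelial cells. Each was singled out because the 2 groups of cells moved in opposite directions; with 1 library per label the difference was not tested, and the Resp18 ratio in the class was 0.03 (-0.14 to 0.20) without the 5 highest cells. In the other epithelial cells, leaving out the 5 highest cells of each library after seeing the data gave 0.13 (0.04 to 0.21) for Resp18 and -0.51 (-1.39 to 0.32) for Pcsk1.

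Barcodes left out as cells also held members: 208 UMIs of the 10 genes together in the library labelled KO (261 CPM summed over the genes) and 199 in the library labelled WT (181 CPM). These barcodes enter no comparison above.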

How the results depend on the processing

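No paired analysis was possible because each label has 1 library, so the shared replicate number pairs nothing. No member past a fold changed direction under the alternatives run; of the others, Pcsk2, Ptprn2 and Resp18 changed sign between the libraries (-0.93 to 0.96, -0.09 to 0.30 and -0.37 to 0.35), and Pcsk2 did so in the WT-labelled comparison of classes (-0.91 to 2.0). Scg2 stayed at least 1.5-fold higher and Chgb at least 1.5-fold lower in the KO-labelled class under 13 of 13 alternatives (log2 0.69 to 1.69 and -2.64 to -0.91), and Pcsk1 stayed higher under 10 of 13 (0.48 to 1.02). The number of members higher in the KO-labelled class, 2 as reported, was 1 without the highest doublet scores, 1 with equal weight per cell, 1 without the 3 subclusters led by genes of other classes (where 2 were lower, not 1) and 4 without the 5 top cells of each gene. Over all epithelial cells, leaving out those 5 cells gave 2 higher and 2 lower members in place of 1 and 1. In the comparison with other epithelial cells, 8 members other than Pcsk2 and Resp18 passed 4-fold in both libraries under 12 of 12 alternatives; Pcsk2 passed in 7 and 1, and Resp18 in 2 and 10. At 1000 UMIs per cell, 31.1% and 29.6% of the class held 3 or more members, against 55.2% and 47.4% at 2000 UMIs. The median share of the class with a UMI of a member was 38.0% and 39.8% without thinning, against 19.6% and 17.8% at 2000 UMIs. Genes of all kinds past the fold depended on the gene filter: with 50 UMIs and with none, 470 and 4456 were higher and 688 and 4147 lower in the KO-labelled class (1040 and 1312 with 20), and 1037 and 4110 higher and 1392 and 3968 lower over all epithelial cells (1633 and 2151). With none, 6357 of 27280 and 6320 of 27999 genes passed 4-fold upward in the class (575 and 504 with 20). These counts without a filter include genes with 0 UMIs in the class, which were set to 3 UMIs. Slc30a8, at 0 against 0.145 CPM in the library labelled KO, had a log2 ratio of 3.61 in this way. They are therefore not counts of genes higher in the class.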
